A study of Mus musculus with 4 samples.

Results

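The kinetochore, centromere and spindle checkpoint genes were examined as a group of 40 genes, chosen by name from the known subunits of these assemblies, of 19938 genes measured. All 40 had a probe set on the array, 1 each, and each of these probe sets was annotated with that gene alone. The RNA came from Dalton's lymphoma ascites (DLA) cells, a transplantable mouse tumour that grows as loose cells in peritoneal fluid. The hosts of both groups were male Swiss albino mice aged 4 to 5 months that carried the tumour. The irradiated group (2 arrays) received 2 Gy of electrons over the whole body on day 8 after transplantation, and its tumour cells were taken 48 h later. The control group (2 arrays) was not irradiated, and the same day 8 and 48 h are recorded for it. Each group was labelled as biological replicates 1 and 2, and the labels do not say whether each was 1 mouse or pooled mice, so p-values measure only the spread between these samples. Values are log2 intensities, on which a difference of 1 is a doubling.

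The kinetochore is the protein assembly that joins a chromosome to spindle microtubules in cell division. It is built on nucleosomes that hold the histone variant CENP-A, which recruit a constitutive centromere network present through the cell cycle, and an outer layer that binds microtubules assembles on that network for mitosis. Kinetochores without a microtubule send out the spindle checkpoint signal, which delays chromosome separation, and the chromosomal passenger complex with its Aurora B kinase releases faulty attachments. Many of the genes are transcribed mainly towards mitosis, while other subunits are made more evenly through the cycle.

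The cells were checked against the name on the label. Of 8 measured T cell markers, 0 reached the median level of the genes tested, and their mean level per array lay between 5.24 and 5.58. The B cell markers (0 of 4 at that median or higher) had mean levels per array between 4.88 and 5.07. Of 7 pan-leukocyte genes 2 reached it by their mean over the arrays: Lcp1, an actin-bundling protein, measured 11.19 and 11.30 on control and 11.78 and 11.96 on irradiated arrays, and Srgn, a granule proteoglycan, 9.29 and 9.89 on control and 8.16 and 8.01 on irradiated arrays. The other 5 did not, among them the common leukocyte antigen Ptprc, with 5.63 and 5.64 on control and 5.57 and 5.49 on irradiated arrays. In contrast, 5 of 6 simple epithelial markers reached the median, and the keratin Krt8 measured 14.07 and 14.11 on control and 13.93 and 13.30 on irradiated arrays. The cells are therefore called DLA cells as labelled, without naming a lineage. The irradiated arrays differed from each other more than the control arrays did: over all genes the SD of the difference between replicates was 0.36 for irradiated and 0.17 for control arrays, and over the 40 kinetochore genes it was 0.25 and 0.12.

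Sequence around the start sites is shown because many promoters of mitotic genes share a short element, the cell cycle genes homology region (CHR), which is bound by MuvB complexes with B-MYB or FOXM1. RefSeq promoters of build GRCm38.p6, of 250 bases before and 50 after a start, were found for 34 of the 40 genes (38 promoters). A CHR-like word, TTTGAA or TTCGAA on either strand, lay within 50 bases of the start in 13 of the 38 promoters (34.2%) and in 5.31% of all 32851 promoters. This distance was chosen after the positions and the expression values had been seen. Of those 13 matches, 12 are printed in windows of 30 bases, in the direction of the gene, with the match in capitals (a TTTGAA on the other strand reads TTCAAA).
Bub1, chr2:127831828-127831857, minus strand: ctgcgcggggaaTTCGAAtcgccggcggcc
Bub1b, chr2:118598231-118598260, plus strand: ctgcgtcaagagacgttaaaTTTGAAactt
Bub3, chr7:131560315-131560344, plus strand: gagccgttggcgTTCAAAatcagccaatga
Cenpa, chr5:30666890-30666919, plus strand: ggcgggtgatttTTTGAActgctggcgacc
Cenpf, chr1:189688067-189688096, minus strand: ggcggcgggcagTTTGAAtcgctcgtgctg
Cenpn, chr8:116921719-116921748, plus strand: gccattggcggcTTCAAAagcacctcggcg
Cenpw, chr10:30200548-30200577, minus strand: tccggcggccaaTTCAAAtcgaccactcgg
Knl1, chr2:119047138-119047167, plus strand: agggcggttagaTTTGAAtacttcagggac
Ndc80, chr17:71526811-71526840, minus strand: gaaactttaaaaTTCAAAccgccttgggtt
Ska3, chr14:57826160-57826189, minus strand: gcctgcgcaggaTTCAAAtgtgtagcgcgt
Spc25, chr2:69206172-69206201, minus strand: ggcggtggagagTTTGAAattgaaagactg
Ttk, chr9:83834684-83834713, plus strand: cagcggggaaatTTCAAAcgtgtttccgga
The matches began between 43 bases before the start (Bub3) and base 41 after it (Bub1b). In the whole 300 bases a CHR-like word occurred in 18 of 38 promoters (47.4%) against 19.2% of all promoters. CCAAT, the word bound by the factor NF-Y, occurred on either strand in 25 (65.8%) against 37.4%, and both words in 14 (36.8%) against 7.52%. A CHR-like word and CCAAT can share bases, as they did in promoters of 2 genes, Cenpw among them. A match is a match of letters only, and base composition was not matched.

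**Figure D1:**
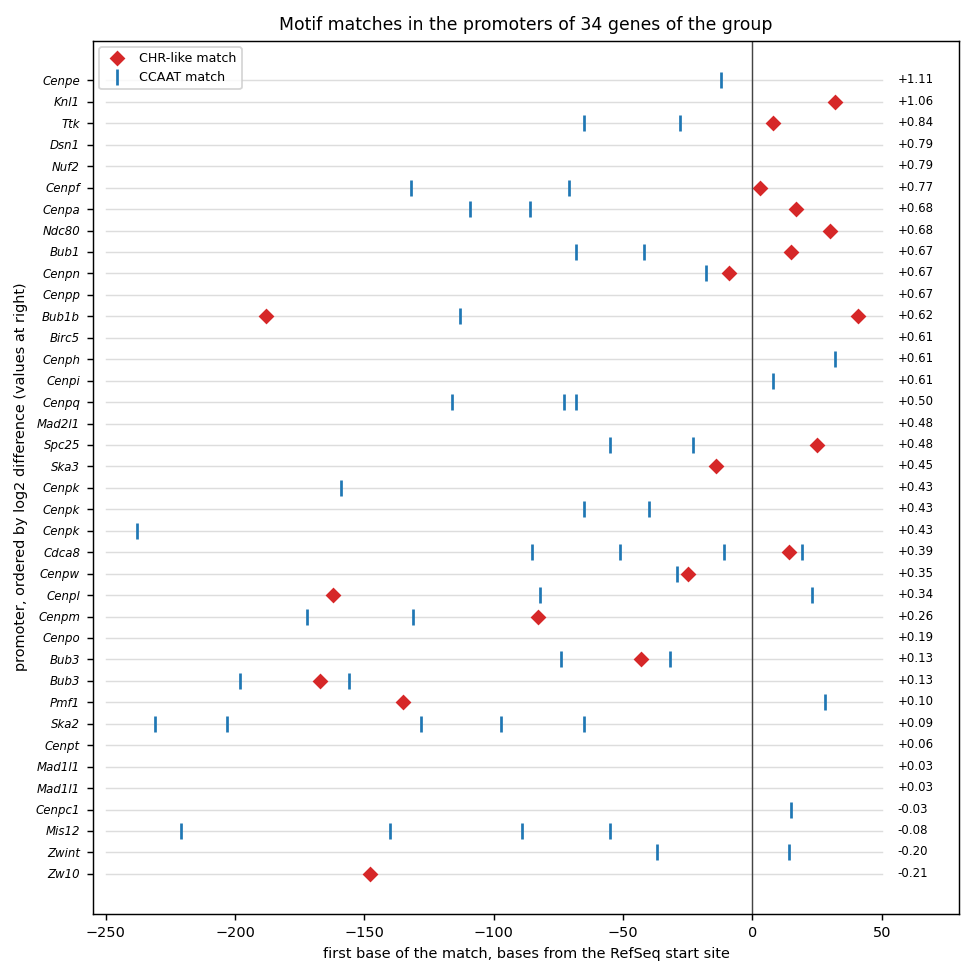
Positions of CHR-like words (diamonds) and CCAAT (bars) in the 38 promoters of 34 genes, in bases from the RefSeq start site on the x axis, 1 promoter per line. Lines are ordered by the log2 difference between irradiated and control arrays, printed at the right, and 13 promoters hold a diamond within 50 bases of the start.

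The design sets irradiated against control cells to ask how RNA levels differed after the exposure. Across the 40 genes the median log2 difference was 0.475 (1.39-fold higher in irradiated cells), against −0.03 over all genes tested, and 35 differences were positive, against 44% over all genes. The groups were apart, with each irradiated value above each control value, for 29 genes (72.5%, against 17.8% of all genes). The opposite order was seen for 0 genes, against 23.9% of all genes. At an unadjusted p under 0.05 in limma, 25 genes (62.5%) were higher, where 5.21% of all genes were, and 0 were lower, where 5.1% were. Of the 25, 16 were also at least 1.5-fold higher (40% of the group), against 1.7% of all genes. None of the 40 passed the threshold adjusted over all genes, where the adjusted p in limma ran from 0.193 to 0.991 and 1 gene of 19938 (0.00502%) passed. The 25 became 8 without control replicate 1 and 13 without control replicate 2, fits in which 1.22% and 1.32% of all genes were higher at that threshold. The genes Cenph, Cenpi, Cenpn, Knl1, Dsn1, Ndc80, Cenpe and Ttk, passed it in each of 12 alternative analyses. The genes below are therefore described by their values, and in what follows "passed" means an unadjusted p under 0.05. In bulk RNA, more cells that express a gene and more RNA per cell cannot be told apart.

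**Figure D2:**
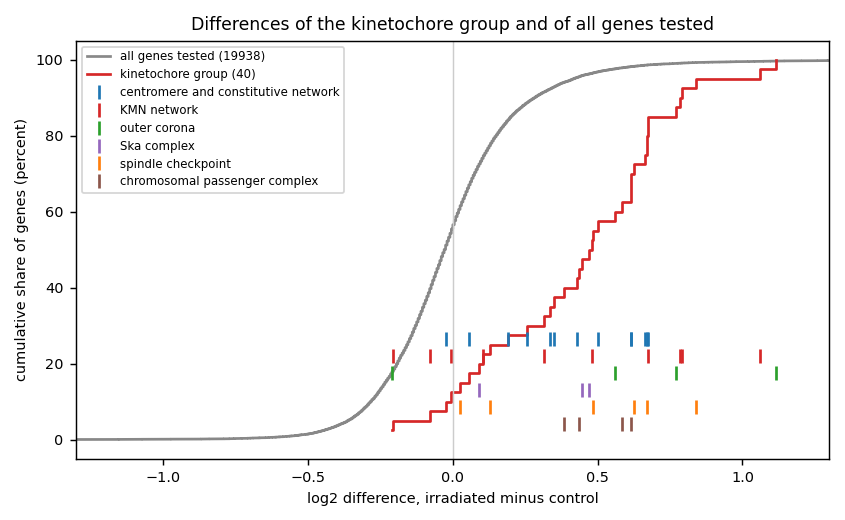
Cumulative share of genes (y axis, percent) by log2 difference between irradiated and control arrays (x axis), for all 19938 genes tested in grey and the 40 kinetochore genes in red, with ticks for single genes coloured by complex. The red curve lies to the right, with a median of 0.475 against −0.03.

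Of the centromere group, which holds CENP-A and 12 subunits of the constitutive network, 9 of 13 genes passed as higher and the median difference was 0.43. Both irradiated arrays were above both controls for 10 of them. Cenpn, whose product reads the CENP-A nucleosome together with that of Cenpl, measured 9.50 on each control array and 10.25 and 10.09 on irradiated arrays. Its difference was 0.67 with a standard error of 0.12 (1.59-fold), and the groups were far apart compared with either spread. Control values of 0 spread, as here, also reflect rounding of the deposited values to 2 decimals. Cenpi and Cenph, neighbours in the CENP-H, I, K and M part of the network, each differed by 0.61 (1.53-fold). Cenpi measured 8.10 and 8.15 on control and 8.81 and 8.67 on irradiated arrays. Cenph measured 7.73 and 7.70 on control and 8.41 and 8.25 on irradiated arrays. Both genes had irradiated values within 0.16 of each other, a narrow spread beside the difference. Cenpk, of the same part, measured 6.71 and 6.80 on control and 7.17 and 7.20 on irradiated arrays, a difference of 0.43 ± 0.11 (SE).

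Cenpp and Cenpq, of the CENP-O, P and Q part of the network, differed by 0.67 and 0.50. Cenpp measured 6.0 and 6.18 on control and 6.61 and 6.90 on irradiated arrays. It was one of the 6 genes of the group whose irradiated replicate 2 lay above replicate 1. Cenpq measured 7.72 and 7.93 on control and 8.39 and 8.26 on irradiated arrays, again without overlap. Cenpw, a histone-fold partner of Cenpt, measured 7.37 and 7.43 on control and 7.72 and 7.78 on irradiated arrays. Cenpw differed by 0.35 ± 0.11 (SE), whereas Cenpt differed by 0.06 with a 95% interval from −0.26 to 0.37; the difference between partners was not tested. Cenpc1, which encodes CENP-C, the scaffold between CENP-A and the outer kinetochore, measured 7.95 and 8.06 on control and 8.06 and 7.90 on irradiated arrays. Its groups overlapped, with a difference of −0.02 and an interval from −0.34 to 0.29.

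The 5 other genes of this group, Cenpa, Cenpl, Cenpm, Cenpo and Cenpt, differed by 0.055 to 0.675, and 2 of them passed, Cenpa and Cenpl. Cenpa itself was uneven: it measured 9.91 and 10.02 on control arrays, but 10.98 on irradiated replicate 1 and 10.30 on replicate 2. Cenpm was the most uneven gene of the 40, with 9.68 and 9.58 on control and 10.31 and 9.46 on irradiated arrays. Its sign therefore depended on the irradiated array, and without replicate 1 the difference was −0.17. These 2 genes were singled out after their values were seen.

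For a view of the sequence before the start, the promoter of Cenpn is printed as the 250 bases before its start, with CHR-like words and CCAAT, on either strand, in capitals. It was the gene with the largest difference among those of the centromere group with a CHR-like word there.
Cenpn, chr8:116921490-116921739, plus strand: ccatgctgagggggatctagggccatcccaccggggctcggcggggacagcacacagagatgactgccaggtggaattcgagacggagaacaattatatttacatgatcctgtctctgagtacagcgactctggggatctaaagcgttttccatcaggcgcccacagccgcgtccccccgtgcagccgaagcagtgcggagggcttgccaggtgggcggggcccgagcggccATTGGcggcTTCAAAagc

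The KMN network, named for Knl1, Mis12 and Ndc80, is the microtubule-binding layer. Of its 10 genes 5 passed as higher and 0 as lower, with a median difference of 0.40. Knl1, the scaffold that recruits the checkpoint proteins, measured 8.92 and 8.93 on control and 10.03 and 9.94 on irradiated arrays. Its difference of 1.06 ± 0.11 (SE) was 2.08-fold (limma adjusted p = 0.193). Zwint, the protein bound to Knl1, went the other way in value: 11.15 and 11.12 on control and 11.12 and 10.74 on irradiated arrays. Zwint differed by −0.20 with an interval from −0.60 to 0.19, so its groups overlapped at 11.12.

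All 4 genes of the Ndc80 complex, the rod that grips the microtubule, had both irradiated arrays above both controls, and 3 of 4 passed. Ndc80 measured 8.07 and 8.01 on control and 8.61 and 8.82 on irradiated arrays, a difference of 0.68 ± 0.13 (SE). Nuf2, its partner at the microtubule end of the rod, measured 7.22 and 7.30 on control and 8.26 and 7.83 on irradiated arrays. Spc25, at the end facing the centromere, measured 7.96 and 7.98 on control and 8.69 and 8.21 on irradiated arrays. The difference of Nuf2 (0.79) and that of Spc25 (0.48) both rested more on irradiated replicate 1. Spc24, the partner of Spc25, differed by 0.315 without passing.

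The Mis12 complex, which links the constitutive network to Ndc80 and Knl1, was uneven among its subunits. Dsn1 measured 7.79 and 7.87 on control and 8.53 and 8.71 on irradiated arrays, 0.79 ± 0.12 (SE) higher and 1.73-fold. The other 3 subunits did not pass and their groups overlapped: Mis12 differed by −0.08 (interval −0.46 to 0.30), Nsl1 by −0.005 (interval −0.29 to 0.28) and Pmf1 by 0.105 (interval −0.29 to 0.50). Their signs changed in some alternative analyses, so no direction is given for them. For Nsl1 and Spc24 no promoter was found. Pmf1 is shown next, because among the other genes of the network it had the largest difference of those with a CHR-like word before the start.
Pmf1, chr3:88410398-88410647, minus strand: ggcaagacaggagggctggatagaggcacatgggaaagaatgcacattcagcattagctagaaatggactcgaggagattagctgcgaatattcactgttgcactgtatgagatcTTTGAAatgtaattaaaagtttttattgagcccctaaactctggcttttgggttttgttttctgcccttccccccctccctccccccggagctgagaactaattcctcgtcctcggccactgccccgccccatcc
The single match lies 135 bases before the start, farther out than the matches in the windows above.

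**Figure D3:**
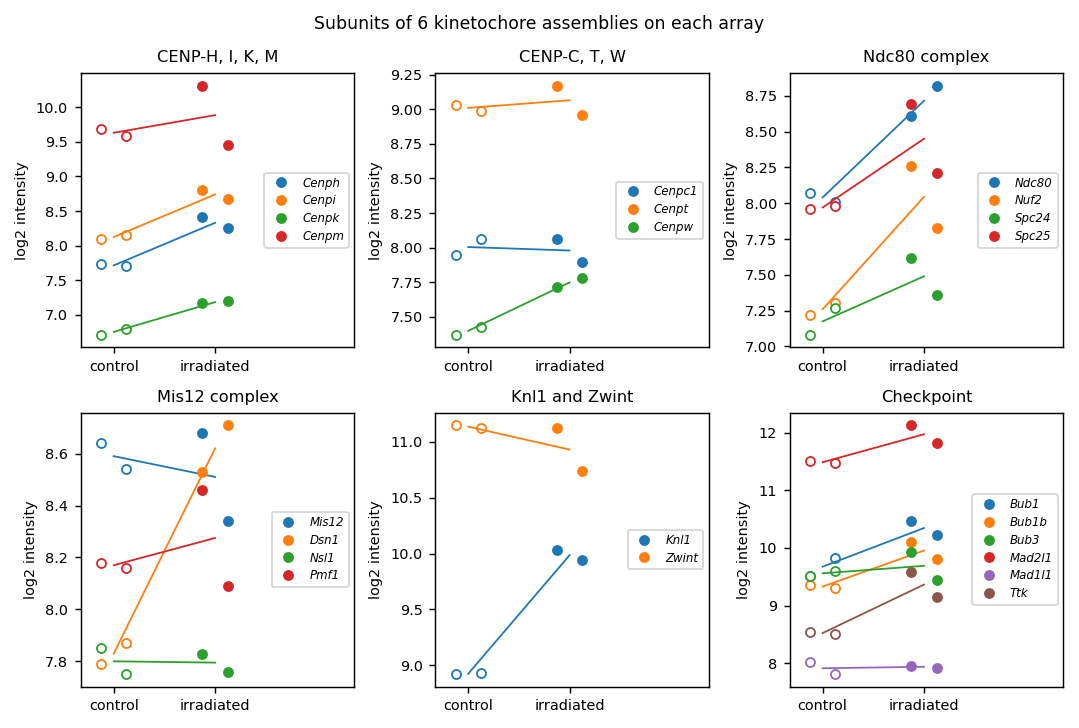
Log2 intensity (y axis) of single subunits in 6 panels, with control arrays as open and irradiated arrays as filled points (replicate 1 left, replicate 2 right) and a line between group means. Dsn1 was higher on irradiated arrays while the other 3 Mis12 subunits overlapped, as did Zwint beside Knl1, and all 4 Ndc80 subunits had their groups apart.

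The outer corona forms on kinetochores that lack microtubules. Cenpe, a kinesin motor that carries chromosomes to the spindle equator, had the largest difference of the 40 genes. It measured 8.32 and 8.53 on control and 9.61 and 9.47 on irradiated arrays, 1.11 ± 0.13 (SE) higher and 2.17-fold (limma adjusted p = 0.193). Cenpf, a large coiled-coil protein of the same layer, measured 8.93 and 9.09 on control and 9.98 and 9.58 on irradiated arrays. Both genes were higher on each irradiated array than on either control, and Cenpf differed by 0.77 ± 0.17 (SE). Zwilch and Zw10 belong to 1 complex that brings the dynein motor and the Mad proteins to the kinetochore. Zwilch differed by 0.56 and passed. Zw10 measured 8.91 and 8.69 on control and 8.78 and 8.40 on irradiated arrays, with overlapping groups and a difference of −0.21 (interval −0.64 to 0.22). Kntc1, the third subunit of that complex and not 1 of the 40 genes, differed by 0.71 and passed, and it is named here after its value was seen. For Zwilch no promoter was found. The promoter of Zw10, the 1 gene of this layer in which a CHR-like word was found before the start, is printed for comparison.
Zw10, chr9:49055331-49055580, plus strand: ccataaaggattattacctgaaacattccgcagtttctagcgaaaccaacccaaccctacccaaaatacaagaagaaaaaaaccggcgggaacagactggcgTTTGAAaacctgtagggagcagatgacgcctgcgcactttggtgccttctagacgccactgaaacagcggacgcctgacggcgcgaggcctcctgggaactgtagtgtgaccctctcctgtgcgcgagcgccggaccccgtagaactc

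The Ska complex follows the ends of microtubules as they shorten. Ska1 measured 6.35 on both control arrays and 6.90 and 6.74 on irradiated arrays, 0.47 ± 0.12 (SE) higher. Ska3 measured 9.10 and 9.09 on control and 9.61 and 9.47 on irradiated arrays, 0.445 ± 0.12 (SE) higher. Both passed with groups well apart, and the difference of Ska2, 0.09 with an interval from −0.23 to 0.41, did not. Ska2 measured 10.34 and 10.28 on control and 10.51 and 10.29 on irradiated arrays, which overlap.

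Of the 6 spindle checkpoint genes, 4 passed as higher, and the median difference was 0.555. Ttk, the kinase (also called Mps1) that starts the signal by phosphorylating Knl1, measured 8.55 and 8.50 on control and 9.58 and 9.15 on irradiated arrays. Its difference was 0.84 ± 0.17 (SE), 1.79-fold. Bub1, the kinase that docks on phosphorylated Knl1, measured 9.52 and 9.83 on control and 10.46 and 10.23 on irradiated arrays. Bub1b, which encodes BubR1 of the inhibitory checkpoint complex, measured 9.35 and 9.31 on control and 10.11 and 9.80 on irradiated arrays. Bub1 and Bub1b differed by 0.67 and 0.625, with every irradiated value above every control value. Mad2l1, which encodes the Mad2 protein that is switched on at free kinetochores, differed by 0.485 and passed. Mad1l1, the platform that switches Mad2 on, measured 8.02 and 7.81 on control and 7.96 and 7.92 on irradiated arrays, so the irradiated arrays lay between the controls. Its difference was 0.02 with an interval from −0.29 to 0.34, and Bub3, the shared partner of the Bub proteins, differed by 0.13 without passing. The signs of both turned when an array was left out. The promoter of Bub1b carries 2 CHR-like words; the one before the start and a CCAAT match are in capitals in the 250 bases printed here, and the other is in its window above.
Bub1b, chr2:118597961-118598210, plus strand: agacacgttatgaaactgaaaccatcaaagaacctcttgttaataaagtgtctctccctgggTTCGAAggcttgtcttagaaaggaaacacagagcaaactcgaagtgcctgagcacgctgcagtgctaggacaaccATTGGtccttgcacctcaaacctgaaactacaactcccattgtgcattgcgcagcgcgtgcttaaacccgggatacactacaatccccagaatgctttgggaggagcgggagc

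All 4 chromosomal passenger genes had both irradiated arrays above both controls, and 2 passed, with a median difference of 0.51. Birc5, which encodes survivin, the subunit that finds the centromere, measured 8.70 and 8.60 on control and 9.54 and 8.99 on irradiated arrays. Incenp, the scaffold that activates Aurora B, measured 8.58 and 8.42 on control and 9.29 and 8.88 on irradiated arrays. Their differences were 0.61 ± 0.20 and 0.585 ± 0.17 (SE), and replicate 1 carried the larger part of each. Cdca8, which encodes borealin, measured 9.09 and 9.15 on control and 9.83 and 9.18 on irradiated arrays, so that replicate 2 was barely above the controls. Cdca8 (0.385, interval −0.18 to 0.95) and the kinase gene Aurkb (0.435, interval −0.05 to 0.92) did not pass. No promoter was found for Incenp and Aurkb. Those of Birc5 and Cdca8 had no CHR-like word in the 250 bases before the start, and bases after it are not counted here.

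**Figure D4:**
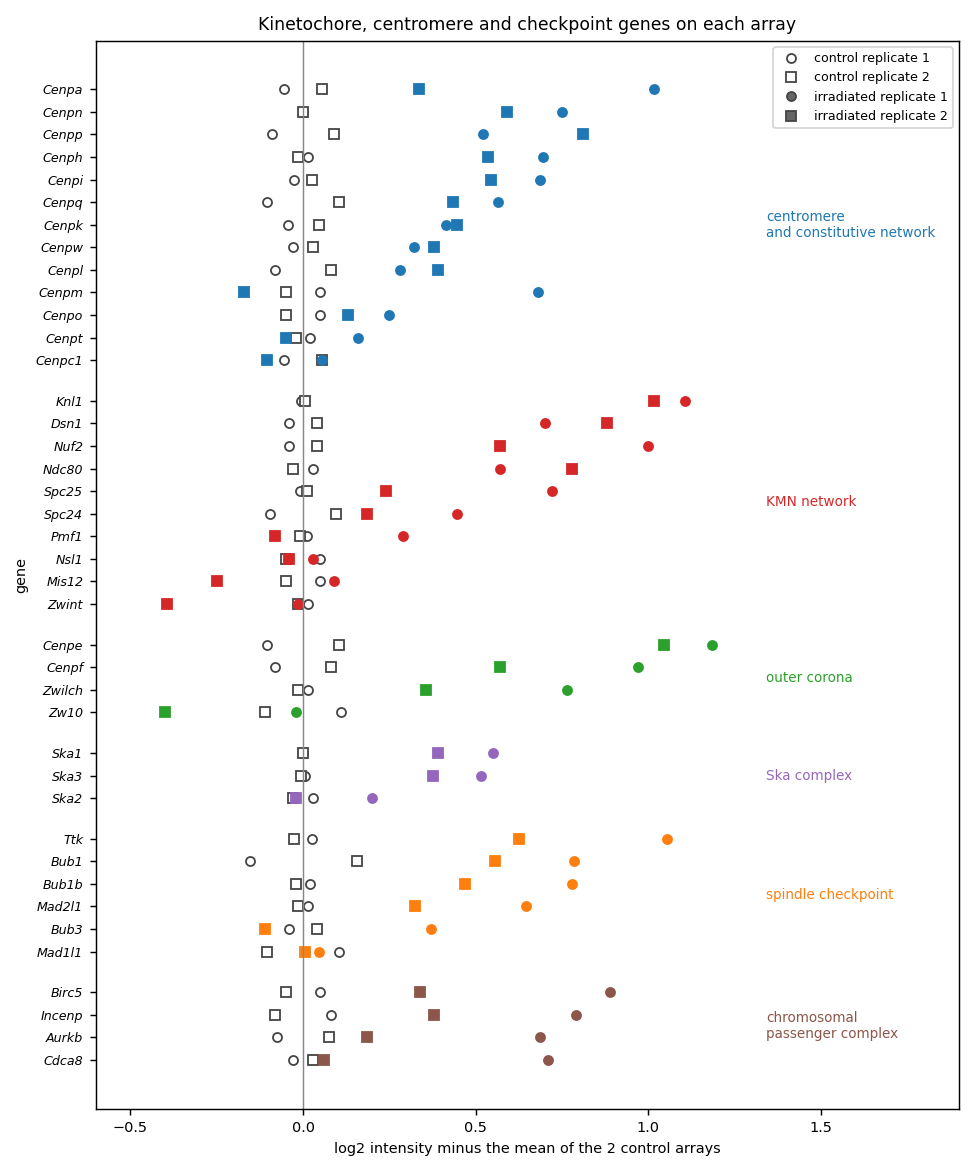
Log2 intensity of each of the 40 genes on each array, minus the mean of the control arrays (x axis), with genes listed by complex on the y axis. Open points are control and filled points irradiated arrays (circle replicate 1, square replicate 2), and for 29 genes both filled points lie to the right of both open ones.

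The irradiated arrays carried the difference unequally. Irradiated replicate 1 lay above replicate 2 for 34 of the 40 genes, against 53.3% of all genes, whereas control replicate 1 lay above control replicate 2 for 19 of 40, against 48.4%. The median over the 40 genes relative to the control mean was 0.61 on irradiated replicate 1 and 0.365 on replicate 2. By complex, the passenger genes were furthest apart, with 0.75 and 0.26, followed in size by the corona with 0.87 and 0.46. The centromere genes had 0.52 and 0.39. On irradiated replicate 2, 30 of the 40 genes were above their control mean, against 8800 of all 19938 genes. On irradiated replicate 1, 38 of the 40 were, against 9189 of all genes. The 6 genes with a higher value on replicate 2 were Cenpk, Cenpl, Cenpp, Cenpw, Dsn1 and Ndc80.

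**Figure D5:**
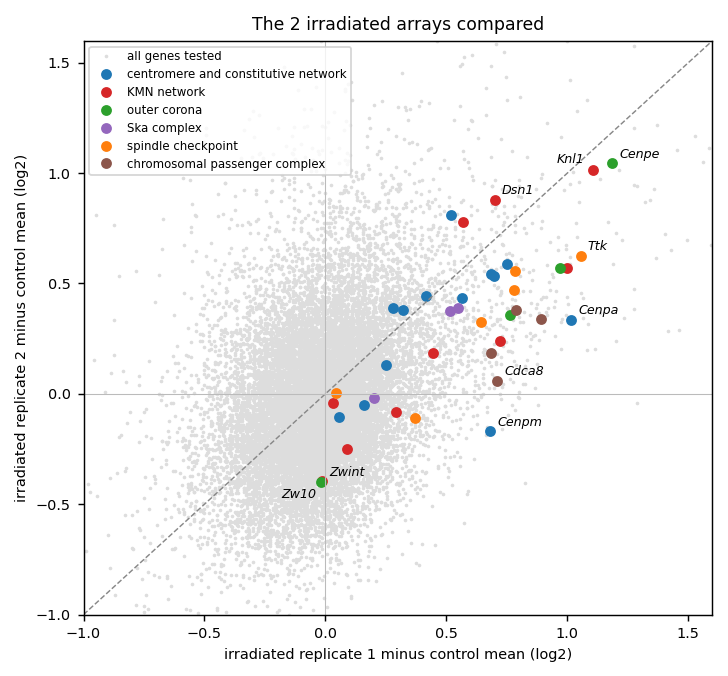
Difference of irradiated replicate 1 (x axis) and irradiated replicate 2 (y axis) from the mean of the control arrays, in log2 units, for all genes tested (grey) and the 40 kinetochore genes coloured by complex; the dashed line marks equal values. Of the coloured points, 34 lie below the line, and Knl1, Cenpe and Dsn1 are close to it at high values on both axes.

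Markers of blood and epithelial cells also differed between the same arrays. The 4 probe sets of the adult globins were 9.32-fold to 28.3-fold lower on irradiated arrays (limma over annotated probe sets, adjusted p from 0.00729 to 0.012). Of 10 neutrophil markers 5 passed as lower and 0 as higher, and their mean levels were 6.10 and 6.26 on control and 5.51 and 5.46 on irradiated arrays. Of 6 epithelial markers 4 passed as lower, with mean levels of 11.40 and 11.33 on control and 11.04 and 10.41 on irradiated arrays. The 6 erythroid markers (2 lower) had mean levels of 6.33 and 6.34 on control and 6.23 and 6.04 on irradiated arrays. Pan-leukocyte genes (2 of 7 lower, 1 higher) had mean levels of 7.31 and 7.43 on control and 7.09 and 7.03 on irradiated arrays. The 8 macrophage markers (2 higher, 1 lower) had mean levels per array between 6.41 and 6.59, and their single differences ran from −0.52 to 0.90. By the mean over all 4 arrays 0 of 6 erythroid and 0 of 10 neutrophil markers reached the median level of the genes tested. Single markers were higher on control arrays, such as Retnlg with 7.19 and 7.85 on control and 5.12 and 4.72 on irradiated arrays, and the adult globin probe sets, which are not in the erythroid list, measured 9.27 to 11.21 on control arrays. The part of these markers in the kinetochore result was not tested.

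Other genes of the same pathways, listed apart from the 40, gave the following counts, to be read against 5.21% of all genes that passed as higher, 5.1% as lower and a median of −0.03. Of 22 measured further centromere and kinetochore genes, 10 passed as higher and 1 as lower, with a median of 0.33. The smallest p-values were those of Sgo2a, a protector of centromeric cohesin (difference 0.70), and the kinesin gene Kif18a (0.69), while Bod1 was the lowest at −0.28. Of 18 genes of the anaphase-promoting complex and its regulators, the target of the checkpoint, 2 passed as higher and the median was 0.065. They were Fbxo5, an inhibitor of the complex (0.82), and Ube2s, its chain-extending enzyme (0.41), while Anapc16 was the lowest at −0.255. Of 15 cohesin and separase genes 4 passed as higher, with a median of 0.22; the smallest p-values were those of the acetyltransferase gene Esco2 (0.75) and of Pttg1, which encodes securin (0.33), with Esco1 lowest at −0.02. Of 19 DNA replication genes 8 passed as higher, with a median of 0.355; Orc1 (0.78) and Pola1 (0.76) had the smallest p-values, with Rfc3 lowest at −0.18. Of 9 mitotic regulators 5 passed as higher, with a median of 0.45; Foxm1 (0.79) and Mki67 (0.81) had the smallest p-values, with Ccna2 lowest at 0.185. None of these genes passed the adjusted threshold in limma. Without control replicate 1 the counts of higher genes became 3, 1, 1, 3 and 3 in this order, and without control replicate 2 they became 4, 1, 1, 2 and 4, where 1.22% and 1.32% of all genes passed as higher. For the anaphase-promoting list the count was 5 without irradiated replicate 2, where 7.51% of all genes did. Whether the 40 genes differed from these lists was not tested.

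Differences were also set beside the promoter words. The 13 genes with a CHR-like word within 50 bases of the start had a median difference of 0.67, a range from 0.13 to 1.06, and 11 that passed as higher. The 21 genes without one had a median of 0.335, a range from −0.21 to 1.11, and 11 that passed as higher. Over all genes tested that had a promoter, the medians were 0.02 for 781 genes with and −0.03 for 14833 genes without such a word near the start, and 11.5% and 5.06% passed as higher. Counted over the whole 300 bases instead, the medians of the kinetochore genes were 0.48 with and 0.485 without a CHR-like word, 17 genes each. The split therefore appeared with the nearer window and not with the wider one. The nearer window was chosen after the positions and the expression values had been seen. Cenpe, with the largest difference, had CCAAT but no CHR-like word in these 300 bases, and Dsn1 and Nuf2 had neither. These are counts without a test.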

How the data were processed

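Total RNA (300 ng per sample) of 2 control and 2 irradiated samples was labelled with biotin and hybridised to one-colour arrays, per the labels' protocols. The deposited values are log2 intensities per probe set from RMA, per the submitters' processing notes; its version is not stated in the labels. Such values share 1 distribution over arrays, which hides shifts common to most genes, and fold changes of dim probe sets are compressed. The number of arrays limits the precision. The array medians lay between 6.43 and 6.46. The table held 0 columns of other samples.

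Of 35556 probe sets, 21789 had 1 gene symbol in the platform's annotation, 1621 had several and 12146 were not listed. Symbols were updated through the RefSeq gene table of GRCm38.p6, in which 21698 were found. For the 999 genes with several probe sets the brightest by mean was taken, which left 19938 genes. The fit used limma 3.58.1 under R 4.3.3 (functions lmFit and eBayes, two-sided; 2 residual and 3.48 prior degrees of freedom) and Benjamini-Hochberg adjustment over all genes. Intervals are limma's at 95%. The procedure was tested on simulated data with equal spread in both groups. It was therefore not tested for the unequal spread of the irradiated and control arrays.

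The genes, lists and tests were chosen with earlier results of these data known. Values by array are given for the genes with the smallest p in each complex (50 percent, rounded up) and its lowest difference; in each other list only differences are given, for the 2 with the smallest p and the lowest. Promoters were to be printed for the largest difference with a CHR-like word before the start in 5 complexes, none from chromosome 18, which gave 4. The sequence of 1 window is not reported here. Alternatives were 2 filters on dim genes, quantile normalization, median centring, averaging all probe sets of a gene, a block for the replicate number, leaving out each array, and eBayes with trend or robust.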

Additional observations from a re-analysis of the deposited data

How the results depend on the processing

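The median difference of the 40 genes stayed positive in all 12 alternatives, as did those of the 6 complexes, and 0 genes passed the adjusted threshold in any of them in limma. Genes higher at an unadjusted p under 0.05 numbered 25 on all arrays (5.21% of all genes), 8 without control replicate 1 (1.22% of all genes), 13 without control replicate 2 (1.32%), 23 without irradiated replicate 1 (13%) and 30 without irradiated replicate 2 (7.51%). Leaving out 1 array at a time gave medians of 0.365 to 0.6075, and Zwint differed by −0.395 without irradiated replicate 1. In these fits of 3 arrays the lone sample is assumed to vary like the other group. A filter at the median of all genes kept 37 of the 40, and left 2 Ska genes with a median of 0.2675. Of the 37 genes, 22 passed as higher, where 8.25% of all genes kept by that filter did. Signs turned in at least 1 leave-one-out fit for 9 genes, whose lowest and highest differences were: Cenpc1 −0.105 to 0.055, Cenpm −0.17 to 0.68, Cenpt −0.05 to 0.16, Mis12 −0.25 to 0.09, Nsl1 −0.055 to 0.045, Pmf1 −0.08 to 0.29, Ska2 −0.02 to 0.2, Bub3 −0.11 to 0.37, Mad1l1 −0.08 to 0.13. Nsl1 also turned with median centring (0.02). With the replicate number as a replicate block, 24 genes passed as higher, where 4.68% of all genes did. Spc25 was the one lost (unadjusted p in limma 0.0522). The labels do not say whether replicates of equal number were handled as pairs. The differences between replicates correlated with r = 0.068 between the groups, across genes, which cannot decide that.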

Other observations

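The probe set of Hjurp, the chaperone that loads CENP-A, was annotated with a second gene and was left out of the comparison. It measured 9.93 and 9.77 on control and 10.35 and 9.78 on irradiated arrays, so the groups overlapped (difference 0.215; limma adjusted p = 0.747 over annotated probe sets).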
